A study of Rattus norvegicus with 8 samples.

Results

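The genes described here are the potassium channel genes of the rat, taken as every non-control array spot whose gene name begins with Kcn. The rule found 178 spots, 147 probes and 93 genes, of 45598 probes and 35901 genes or names on the array. The family was selected on the results of these same arrays, by the large differences of Kcnh1 and Kcnn2 between the groups. For that pair the difference is therefore given as a description with no test, while its other probes and the remaining members are set out beside it.

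The arrays were 1-colour Agilent rat arrays hybridised with liver RNA from male Wistar rats, 4 rats in each group per the labels. STL rats had 1.65 g/kg body weight of butyrate-containing structured lipids by gavage each day, and control rats had 3.0 g/kg of maltodextrin, an amount of equal energy. Rats of both groups, controls included, entered the resistant hepatocyte protocol of chemical liver carcinogenesis 2 weeks into the treatment, and all livers were taken at 8 weeks, so no liver here was free of the carcinogenic protocol. The ages of the rats and the agents of that protocol are not given in the sources used here, beyond the label of the controls as age-matched. The comparison asks which transcripts differed when the structured lipid was given during hepatocarcinogenesis.

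Potassium channels let potassium ions leave or enter cells along their electrochemical gradient and so set the membrane potential. Voltage-gated channels open on depolarization, calcium-activated channels open when calcium rises in the cell, inward rectifiers pass current more easily into the cell than out of it, and two-pore channels carry a steady leak. Auxiliary subunits change how the pores open or how many reach the membrane. In hepatocytes and bile duct cells, potassium channels take part in volume regulation, bile secretion and the driving force for bile acid and amino acid uptake. Many of the genes are better known from neurons and muscle.

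Levels are on a log2 scale of the scanner's processed signal, relative to the 75th percentile of the same array, so a level of 0 lies at that percentile, and a difference of 1 between groups is a change of signal by a factor of 2. Levels of different probes are not compared with each other. The percentile lay between 304 (STL 7) and 605 (control 4) in units of processed signal, and each array had 54.2% to 62.8% of its probes well above background. The arrays of control 1 and control 2 differed over repeated spots by 1.05 times the noise between spots of 1 array, against 2.09 to 7.19 times for the other 27 pairs of arrays, so they were counted as 1 sample and the tests compare 4 STL with 3 control samples. The number of arrays limits the precision, and the labels do not say how the samples of 1 group were otherwise related than by rat number. Where a group moved in this bulk tissue, fewer cells of a type and less RNA per cell cannot be told apart.

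The hepatocyte markers fixed for the check of the tissue were all measured, 8 of 8, with a mean level of 6.87 to 7.31 over the STL samples and 6.22 to 6.999 over the control samples. Of the 10 marker lists, cell division, cholangiocyte and stellate genes had the largest median differences. All 6 cell division markers were lower in STL livers, with a median log2 difference of -1.50 and a mean level of -2.05 to -1.32 against -1.59 to 0.75 in control livers, and 5 of 6 cholangiocyte markers were lower, at -2.14 to -0.78 against -0.98 to 0.38. Of the stellate markers 5 of 6 were lower, at 1.68 to 2.38 against 2.31 to 3.08. Of 6 neural and glial markers 4 were measured, 3 of them higher in STL livers, at -3.41 to -3.002 against -3.91 to -3.51, while Snap25 and Syt1, which define neurons, were not well above background on enough arrays. By limma 0 of 55 markers tested passed an adjusted p of 0.05 and 18 of the 55 had an unadjusted p under 0.05, against 19.0% of all genes tested. Of the 18, 6 were the cell division markers. The lists were chosen with earlier results of these data known, so nothing is read from this count. The part of the markers in the results below was not tested.

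Detection came first, since it decides what can be compared. A gene was tested when any single probe of it was well above background on at least 4 of the 8 arrays. This held for 46 of 93 Kcn genes (49.5%) and for 60.5% of all genes or names, 21707 in number. Of the tested members, 33 were well above background on all 8 arrays. Of the 47 others, 25 had no probe well above background on any array and 22 had one on a few arrays. A dim probe gives only an upper limit to a level and does not show that the channel is absent.

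The calcium- or sodium-activated class was measured most fully, with 6 of 7 genes tested, followed by the KCNQ class with 4 of 5. The voltage-gated Kv1 to Kv4 class had 7 of 17 genes tested, the electrically silent subunits 5 of 10, the EAG, ERG and ELK class 4 of 8, the two-pore channels 7 of 14, the auxiliary and regulatory subunits 7 of 17 and the inward rectifiers 6 of 15. Among the genes with no probe above background on any array were Kcna1, Kcna4 and Kcna5 of the Kv1 channels, Kcnj10, an inward rectifier known from glia, and Kcnk3, an acid-sensitive leak channel. No member was well above background on all arrays of 1 group and on none of the other. Kcnh2, which codes for the ERG channel of the cardiac action potential, was well above background on 0 STL arrays and 1 control array, and Kcne3, a partner of Kcnq1 in epithelia, on 1 STL array and 0 control arrays.

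**Figure D1:**
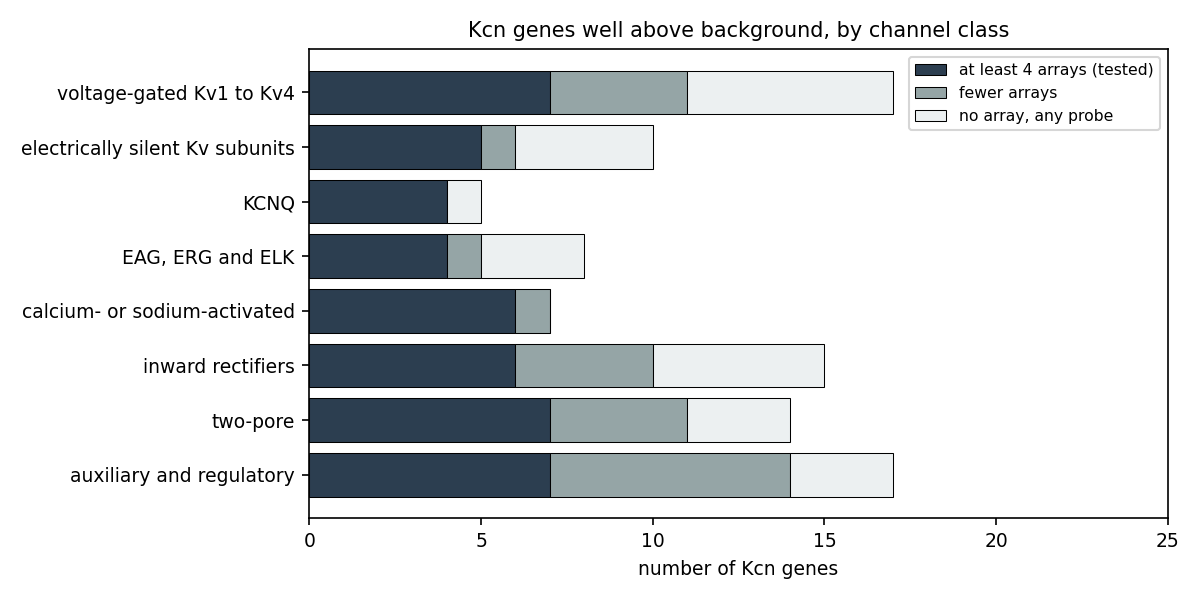
Number of Kcn genes in each channel class, stacked by how many of the 8 arrays had a probe of the gene well above background: at least 4 for a single probe (tested), fewer, or none for any probe. The tested part is 6 of 7 in the calcium- or sodium-activated class and 6 of 15 among the inward rectifiers.

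Kcnh1 codes for EAG1, a voltage-gated channel that is inhibited by calcium and calmodulin, is found mainly in brain and has been studied in human tumours. It had 1 probe, printed on 2 spots, which the scanner files place on chromosome 13, plus strand, at chr13:108407705-108407764 of rat build rn4. The first 30 bases of the probe are shown because the whole Kcnh1 result rests on this single sequence.
Kcnh1 A_43_P12658: tggatgtggagaacatgtgggcactccacg
The files give no exon or coding annotation for the probe.

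The processed signal of Kcnh1 was 214, 323, 254 and 232 in STL 5, 6, 7 and 8, against 61.8, 45.0, 61.4 and 24.0 in controls 1, 2, 3 and 4. All 8 arrays were well above background, and the lowest STL array was above the highest control array. After scaling, the level of Kcnh1 was -1.08, -0.60, -0.26 and -0.99 in STL 5, 6, 7 and 8, against -3.26 in the averaged control 1 and 2, -3.09 in control 3 and -4.66 in control 4. The STL livers lay within less than 1 unit of each other, and among the controls it was control 4 that lay below the rest. The mean level was -0.73 ± 0.38 in STL livers (SD, n = 4) and -3.67 ± 0.86 in control livers (SD, n = 3). The log2 difference was 2.94, a 7.65-fold higher signal in STL livers. With another background correction, normexp, the difference was 1.86, still with no overlap of the samples.

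Kcnn2 codes for SK2, a small-conductance channel that opens when calcium binds the calmodulin held on its tail, known from the after-hyperpolarization of neurons and reported also in cultured bile duct cells. It had 4 probes, all placed by the files on the plus strand of chromosome 18 in rn4, and they are shown because they read the gene at 4 separate places. The files list 3 of them under 1 transcript and the brightest under another transcript of the gene.
Kcnn2 A_44_P1360107: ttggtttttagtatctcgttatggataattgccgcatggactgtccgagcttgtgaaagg
Kcnn2 A_43_P12019: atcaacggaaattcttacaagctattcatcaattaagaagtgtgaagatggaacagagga
Kcnn2 A_44_P1159809: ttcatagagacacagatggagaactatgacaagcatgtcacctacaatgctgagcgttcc
Kcnn2 A_44_P1162975, first 30 bases: cacagggaatgcaccaattattgctatata
The first lies at chr18:39598550-39671730, which is 73181 bases of genome for 60 bases of probe, and the second at chr18:39696591-39702628, which is 6038 bases, so both cross introns and match spliced RNA. The third lies within a single stretch at chr18:39704912-39704971 and the fourth, the brightest, at chr18:39705223-39705282.

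The brightest Kcnn2 probe had a processed signal of 626, 491, 1059 and 1131 in STL 5, 6, 7 and 8, against 123, 107, 343 and 240 in controls 1, 2, 3 and 4. Its level was 0.46, 0.0057, 1.80 and 1.30 in STL 5, 6, 7 and 8, against -2.13 in the averaged control 1 and 2, -0.61 in control 3 and -1.33 in control 4. The groups did not overlap, although the nearest samples, STL 6 and control 3, lay 0.62 apart, against 2.01 for the nearest samples of Kcnh1. The mean level was 0.89 ± 0.81 in STL livers (SD, n = 4) and -1.36 ± 0.76 in control livers (SD, n = 3), and the log2 difference 2.25, a 4.76-fold higher signal in STL livers.

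The other 3 Kcnn2 probes carried the same pattern. A_44_P1159809 was well above background on all 8 arrays, and its level was -0.54, -1.12, 0.29 and -0.14 in the STL livers, against -3.19, -1.92 and -2.57 in the control samples, a difference of 2.18. The 2 probes that cross introns were well above background on all 4 STL arrays but on 1 control array each, control 3. Their differences were 1.94 for A_43_P12019 and 2.19 for A_44_P1360107, and for dim control arrays such values rest on signal close to background. On every one of the 4 probes the lowest STL sample was above the highest control sample, which was control 3 each time, with a gap of only 0.023 on A_44_P1360107, and STL 7 or STL 8 was the highest sample. The probes share the same 8 RNA samples, so they are not replicates of the comparison.

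**Figure D2:**
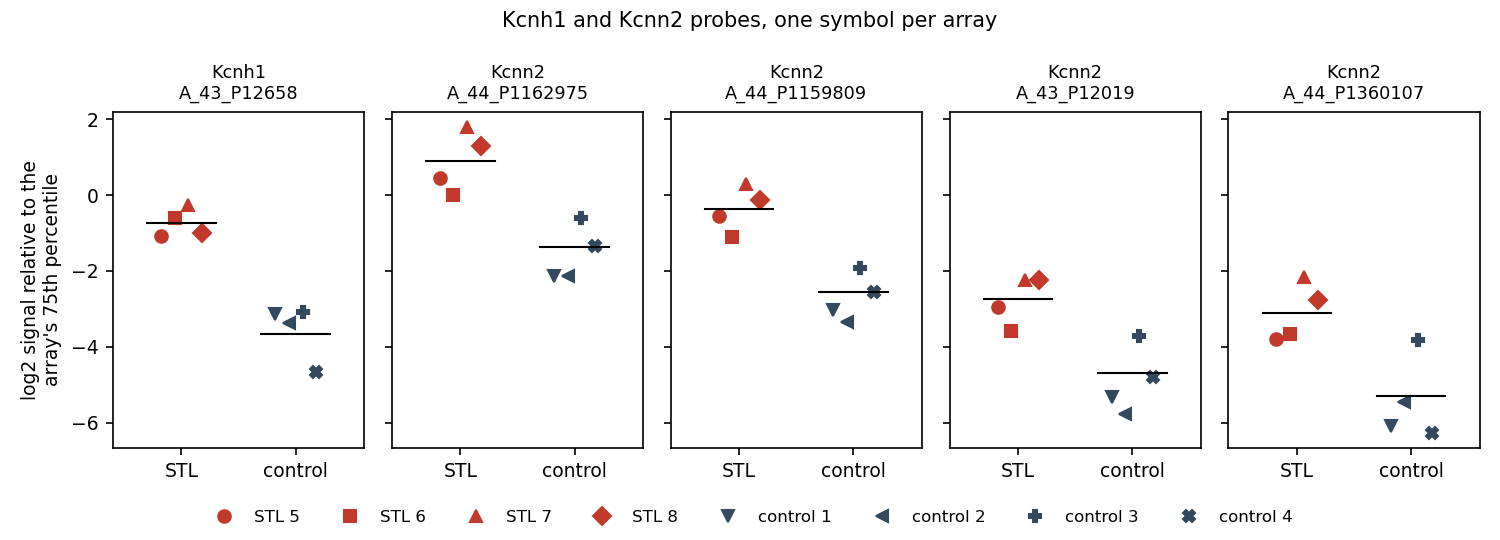
Level of the Kcnh1 probe and of the 4 Kcnn2 probes on each of the 8 arrays (log2 signal relative to the 75th percentile of the array), STL at left and control at right, with bars at the means of 4 STL and 3 control samples. In all 5 panels the STL arrays lie above the control arrays, with log2 differences of 2.94 for Kcnh1 and 1.94 to 2.25 for Kcnn2.

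Kcnh1 and Kcnn2 did not order the samples alike. Within the STL group STL 7 was the highest sample for both, but the lowest was STL 5 for Kcnh1 and STL 6 for Kcnn2, and among the controls the lowest was control 4 for Kcnh1 and the averaged control 1 and 2 for Kcnn2. Each of the 4 columns of the slide held 1 STL and 1 control array. Within columns the STL array was above the control array by 2.05 to 3.67 for Kcnh1 and by 2.13 to 2.63 for Kcnn2. The sign was fixed in advance, because the single arrays of the groups did not overlap for either gene. The columns are also not separate comparisons, since control 1 and control 2 were counted as 1 sample.

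The markers that moved with the groups can be set beside these values. The averaged control 1 and 2 had a cell division level of -1.59 and a cholangiocyte level of -0.87, both inside the STL range. Its Kcnn2 level was -2.13, the lowest of all samples, and its Kcnh1 level -3.26, below every STL liver. Control 3 and control 4 had cell division levels of 0.72 and 0.75, above the STL range, and cholangiocyte levels of -0.98 and 0.38. STL 6, whose array differed from those of control 1 and control 2 by only 2.09 and 2.12 times the noise between spots, the least of any STL array, had a Kcnh1 level of -0.60. Its Kcnn2 level, 0.0057, was the lowest of the STL samples. The neural and glial list also had every STL sample (-3.41 to -3.002) above every control sample (-3.91 to -3.51), but the nearest samples, STL 8 and the averaged control 1 and 2, were close. Its median log2 difference was 0.26, against 2.94 for Kcnh1 and 2.25 for Kcnn2, and 1 of its 4 tested genes was lower. Groups did not overlap for 16.9% of all genes. The part of any of these lists in the values of Kcnh1 and Kcnn2 was not tested.

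Over the family as a whole, 26 of the 46 tested genes were higher and 20 lower in STL livers, with a median log2 difference of 0.034, against 0.065 over all 21707 genes tested. Without Kcnh1 and Kcnn2 the median was 0.016. The balance moved with the scaling, to 23 of 46 higher and a median of -0.011 with median scaling (all genes 0.019), and to 35 of 46 higher and a median of 0.19 with normexp (all genes 0.12). No member passed an adjusted limma p of 0.05, where 0.00461% of all genes did, and 9 members had an unadjusted p under 0.05, 8 higher and 1 lower. Of the 44 members other than Kcnh1 and Kcnn2, 7 had an unadjusted p under 0.05, 6 higher and 1 lower. That is 15.9%, against 19.0% of all genes, 11.6% higher and 7.40% lower, and 19.6% with the pair included, so the share is near the background and is no result about the family. The samples of the groups did not overlap for 9 members (19.6%), 8 higher and 1 lower, against 16.9% of all genes, 11.3% higher and 5.62% lower, and for 7 of 44 (15.9%) without the pair. Counting Kcnh1 and Kcnn2, the number past the adjusted threshold was 1 with the 8 arrays as samples, with slide column as a block or without the averaged control 1 and 2, and 3 with array weights. All of these calls but 1, Kcnb2 with array weights, were of that pair, which was chosen on the same contrast, so nothing is read from them. Kcnb2 entered the comparison through the STL group, where it was high, so nothing is read from its call either. It is also among the 7 of 44 members in both counts above.

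By class, at the 75th percentile scaling, the median log2 difference was 0.32 for Kv1 to Kv4, 0.15 for the electrically silent subunits, 0.42 for EAG, ERG and ELK (0.36 without Kcnh1), 0.19 for the calcium- or sodium-activated channels (-0.080 without Kcnn2), 0.016 for the inward rectifiers and -0.011 for the auxiliary subunits. It was below 0 for the two-pore channels, at -0.071, and for KCNQ, at -0.46. The median of the electrically silent subunits is the value of Kcng1, read by a probe of A and G alone. As given below, a level for Kcng1 cannot be taken from that probe with any confidence. Kcng1 is also among the 26 genes counted as higher. With 4 to 7 tested genes in a class these medians describe the genes at hand only.

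**Figure D3:**
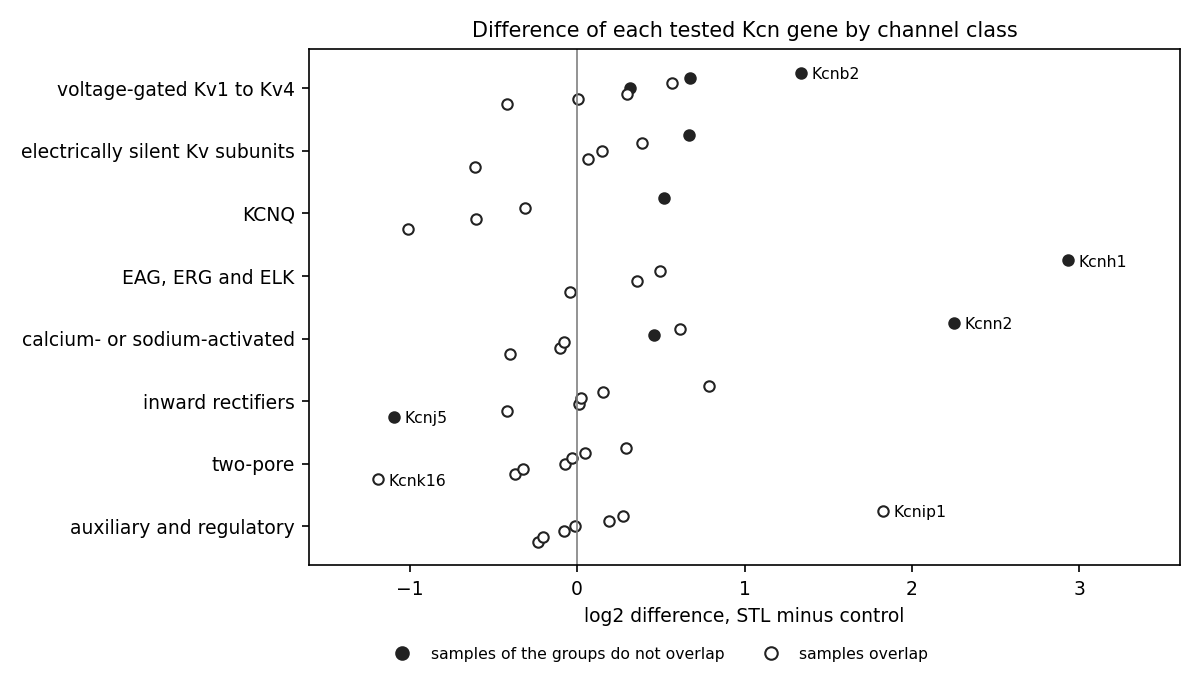
Log2 difference (STL minus control) of each of the 46 tested Kcn genes, in rows by channel class, filled where the 4 STL and 3 control samples do not overlap. Kcnh1 (2.94) and Kcnn2 (2.25) stand at the right, and apart from 7 genes, this pair included, the members lie between -1 and 1. Over all genes tested, 4.04% had a difference over 1 in size. The 7 hold the pair on which the family was chosen and Kcnb2, which entered through the STL group, so nothing is read from their number.

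Among the voltage-gated Kv1 to Kv4 genes, 6 of 7 were higher and 1 lower in STL livers. Kcnb2, which codes for the delayed rectifier Kv2.2, had a level of -4.59, -3.31, -3.77 and -4.37 in the STL livers, against -4.77, -5.61 and -5.65 in the control samples, a difference of 1.34. The averaged control sample hides a gap here, since control 1 alone was at -3.66 and control 2 at -5.88. The probe was well above background on 4 STL arrays and 1 control array, so it entered the comparison through the group where it was high and its difference is given with no test. The difference was 0.55 with normexp, and over 8 single arrays the groups overlapped. Kcna7, a Kv1 channel known from muscle and heart, was at -0.38, -0.88, -0.83 and -0.44 in the STL livers, against -0.90, -1.23 and -1.79 in the control samples, a difference of 0.67 (SE 0.23, limma adjusted p = 0.200). For Kcna7, too, control 1 alone lay within the STL range. Kcna2, a Kv1 channel of axons, had the smallest difference of the class, 0.0057 (95% interval -0.48 to 0.50).

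The electrically silent subunits form no channel of their own and change the properties of Kv2 channels. Kcns2 had a level of -0.040, -0.042, 0.78 and 0.25 in the STL livers, against -0.58, -0.25 and -0.46 in the control samples, a difference of 0.67 (SE 0.21, limma adjusted p = 0.184). The groups did not overlap, also over 8 single arrays, so the STL array was higher in every slide column, by 0.50 to 1.03. Kcng1 was measured by 2 probes that give very different signals. The brighter one is shown because of its composition, with all 60 of its bases A or G, and the files place it over 47 bases at chr3:159427597-159427643 of rn4, minus strand.
Kcng1 A_64_P124781, first 30 bases: agaagaagaagaagaagaggaggaggagga
Its processed signal was 98494 to 170768 on STL arrays and 150400 to 187965 on control arrays, with a log2 difference of 0.15, while the other probe, A_64_P097376, read 22.0 to 42.8 on STL arrays and 19.7 to 39.5 on control arrays, with a difference of 0.50. The array holds 5 probes made of A and G alone, and a level for Kcng1 cannot be taken from this one with any confidence.

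Of the KCNQ channels, 1 was higher and 3 were lower in STL livers. Kcnq1, which forms epithelial and cardiac channels with KCNE subunits, was named after its values were seen, and had a difference of -0.61 (SE 0.34, limma adjusted p = 0.349), with levels of -0.66, 0.12, -0.19 and -0.84 in the STL livers that overlapped with 0.12, -0.44 and 0.95 in the control samples.

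Apart from Kcnh1, the EAG, ERG and ELK class showed small differences. Kcnh3, an ELK channel of brain, differed by 0.36 (SE 0.13, limma adjusted p = 0.218), at -0.14, -0.43, -0.12 and -0.19 in the STL livers, against -0.40, -0.68 and -0.64 in the control samples. STL 6 lay just below the highest control sample, and a second probe differed by 0.29. Kcnh6, an ERG channel, differed by -0.044 (95% interval -0.96 to 0.87), an interval wide enough to hold a change by nearly a factor of 2 in either direction.

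In the calcium- or sodium-activated class, 3 of 6 tested genes were higher and 3 lower. Kcnn3, which codes for SK3, another small-conductance channel, had a level of -1.45, -1.06, -1.13 and -1.30 in the STL livers, against -1.55, -1.76 and -1.77 in the control samples, a difference of 0.46 (SE 0.15, limma adjusted p = 0.192). STL 5 was only 0.10 above the averaged control 1 and 2. The remaining members of the SK and IK family, named after their values were seen, were Kcnn1 (SK1), with a difference of 0.61 (SE 0.29, limma adjusted p = 0.284), and Kcnn4, the intermediate-conductance channel of blood cells and epithelia, with -0.40 (SE 0.21, limma adjusted p = 0.317). Both had overlapping groups, and both had a second probe of the same direction, at 0.45 for Kcnn1 and -0.44 for Kcnn4. Kcnma1, the large-conductance BK channel, differed by -0.080 (95% interval -0.59 to 0.43).

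**Figure D4:**
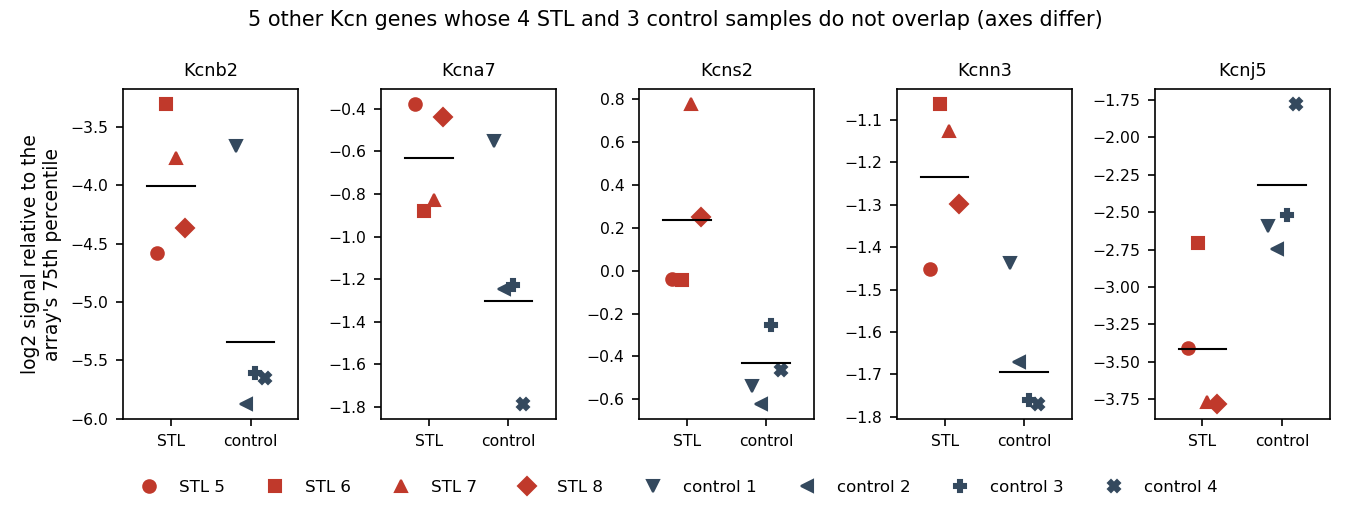
Level of 5 other Kcn genes whose 4 STL and 3 control samples do not overlap (log2 signal relative to the 75th percentile of the array, a scale of its own per panel), for each of the 8 arrays, STL at left and control at right, with bars at the sample means. In 4 of the panels (Kcnb2, Kcna7, Kcnn3 and Kcnj5) single control arrays reach into the STL range, and in Kcns2 they do not.

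Among the inward rectifiers, Kcnj5 was the only member of the family with an unadjusted p under 0.05 in the lower direction. It codes for a G protein-gated channel of heart and adrenal cortex. Its level was -3.41, -2.71, -3.77 and -3.78 in the STL livers, against -2.67, -2.52 and -1.78 in the control samples, a difference of -1.10 (SE 0.33, limma adjusted p = 0.179), or -0.36 with normexp. STL 6 lay 0.038 below the averaged control 1 and 2, with control 2 alone slightly below STL 6. Kcnj8, the pore of the vascular ATP-sensitive channel, was measured on all arrays, at 2.62, 2.53, 2.84 and 2.18 in the STL livers and 2.58, 2.43 and 2.59 in the control samples, with a difference of 0.011 (95% interval -0.34 to 0.36).

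Of the two-pore channels 2 were higher and 5 lower, and none had an unadjusted p under 0.05 or, on its brightest probe, groups apart. Kcnk6 (TWIK2) differed by -0.033 (95% interval -0.38 to 0.31), and its 2 tested probes differed in sign. The second, A_44_P1158039, differed by 0.22. Its groups did not overlap with control 1 and 2 averaged, but control 1 alone, at -1.0662, lay above STL 7, at -1.0685. Kcnk5, the TASK2 channel of epithelia that responds to alkaline pH and swelling, was named after its values were seen, and had levels of 1.94, 2.88, 2.85 and 3.38 in the STL livers, against 2.27, 2.53 and 2.61 in the control samples. Its STL livers spread widely on both sides of the controls, and the difference was 0.29 (SE 0.29, limma adjusted p = 0.594).

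The auxiliary and regulatory genes had 3 members higher and 4 lower, none with an unadjusted p under 0.05. Kcnmb2, a beta subunit of the BK channel, differed by -0.011 (95% interval -0.59 to 0.57). Kcnip1, a calcium-binding partner of Kv4 channels named after its values were seen, had a difference of 1.83 (SE 0.82, limma adjusted p = 0.272), with levels of -0.40, -1.67, -1.83 and -0.67 in the STL livers, against -1.18, -2.54 and -5.18 in the control samples. Control 4 lay far below the rest for Kcnip1, the difference was 0.72 without it, and the averaged control 1 and 2 lay within the STL range.

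For 8 members, several probes could be tested, and 5 of them, Kcnn2 among them, had all probes in 1 direction. The exceptions were Kcnk6, Kcnk13 and Kcnab2, a beta subunit of Kv1 channels, whose 2 probes differed by -0.21 and 0.63. Kcnn2 was chosen on this contrast, and 2 of its probes entered through the STL group, where they were high. Kcng1, also among the 5, rests in part on the probe of A and G alone. Probes of a gene share the same RNA samples, so nothing is read from this count.

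The other genes of potassium transport, a list of 43 pumps, cotransporters, pacemaker channels and channel partners, had 29 members tested, 21 higher and 8 lower in STL livers, with a median log2 difference of 0.0996. No member passed an adjusted limma p of 0.05, and 5 had an unadjusted p under 0.05 (17.2%, against 19.0% of all genes), all of them higher. The count was 1 without control 3 and 1 without control 4, 2 without STL 5 and 2 without STL 8. It was 3 without STL 7, 6 without STL 6, 9 without the averaged control 1 and 2, and 2 with median scaling. Over all genes this count moved in the same directions. It was 4116, but 2821 without control 3, 2888 without control 4 and 2755 without STL 8. With median scaling it was 3585, and without the averaged control 1 and 2 it was 4961. The swing is therefore no result about this list. Lrrc38, a gamma-type partner of BK channels, differed by 0.34 (SE 0.13, limma adjusted p = 0.230) and the pacemaker channel gene Hcn4 by 0.62 (SE 0.25, limma adjusted p = 0.244), both with groups apart. Slc12a3, the sodium-chloride cotransporter of the kidney, differed by 0.80 (SE 0.30, limma adjusted p = 0.223) and Tmem38b, which codes for a potassium-permeable channel of the endoplasmic reticulum, by 0.43 (SE 0.18, limma adjusted p = 0.249), both with overlapping groups.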

How the data were processed

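Liver RNA was extracted with a column kit and hybridised to 1-colour arrays, per the labels' protocols. Spot intensity was read from the deposited scanner files, made with Agilent Feature Extraction, version 11.5.1.1 per the file headers and 10.7 per the submitters' processing notes. The authors' deposited series table holds scaled intensity of the same arrays; 6 of its 8 columns matched a differently numbered array from their own group and 0 an array from the opposite group, so rat numbers within a group are unsettled. Its column medians lay between 42.1 and 48.9.

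Of 62976 spots per array 58717 were not controls. Non-uniform and population outlier spots were left out, spots of a probe were averaged, and log2 of the processed signal minus the array's 75th percentile was used. A probe was well above background where at least 0.5 of its spots were, and no spot was saturated. Of a gene's probes that were well above background on at least 4 arrays, the brightest stood for the gene. Probes outside the family were named through RefSeq tables of assembly GRCr8 (23740 by accession, 5159 by symbol, 352 by synonym, and 16347 kept the file's name), and members by the files' names. Probe positions and sequences are those of the scanner files, whose headers name rn4. The test was limma 3.58.1 under R 4.3.3 (eBayes after lmFit, trend on intensity, two-sided, Benjamini-Hochberg over all genes tested, threshold 0.05), checked on simulated data. Intervals are at 95%, from the same fit. All arrays shared 1 slide and 1 scan time.

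The members, classes and lists were chosen with earlier results of these data known. Named genes were Kcnh1 and Kcnn2, and in every class those with an unadjusted p under 0.05, those whose groups do not overlap, and the gene well above background on all 8 arrays with the smallest difference, and of the potassium transport genes the 5 with the smallest p; 3 genes that this rule took are not reported here. Replicate numbers are not shared between the groups.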

Additional observations from a re-analysis of the deposited data

Results flagged for a closer look

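In 7 of the 46 tested Kcn genes, 1 STL liver lay far from the other 3 by Dixon's gap test, and 5 of these genes are given here. The nominal rate of the test is about 5% of groups with normal values. The share over all genes was not taken and the 46 genes share the same 4 STL arrays, so the count is no result about the family. No control group could be examined in this way because it held 3 samples. STL 6 stood above the others for Kcnk16, an islet leak channel, at -1.14 against -3.89 to -3.44. STL 5 stood above the others for Kcnk6, at 0.377 against -0.146 to -0.072, and for Kcnj2, the classical inward rectifier, at -2.76 against -2.997 to -2.973. STL 7 stood below the others for Kcnn4, at -2.33 against -1.85 to -1.82, and for Kcnmb3, at -4.92 against -4.06 to -3.89. Neither Kcnh1 nor Kcnn2 was among the 7.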

How the results depend on the processing

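The count of Kcn genes past the adjusted threshold was 0 and was 1 with the 8 arrays as samples (Kcnh1), 1 with slide column as a block (Kcnn2), 1 with the authors' table, an alternative chosen after seeing the data (Kcnh1), and 3 with array weights (Kcnh1, Kcnn2 and Kcnb2), a setting that called 1595 genes in all. Kcnh1 and Kcnn2 were chosen on this contrast, so their calls are given as counts and support nothing. The call of Kcnb2 supports nothing either, because its probe entered the comparison through the group where it was high. Leaving out 1 sample gave 0 to 1, the 1 being Kcnh1 without the averaged control 1 and 2. For the potassium transport genes the count was 0, and 2 with array weights (Slc12a3 among them), and leaving out 1 sample gave 0 to 0. Of Kcn genes with an unadjusted p under 0.05 there were 9, but 14 with normexp and 14 with array weights, and 7 to 12 on leaving out 1 sample. The share was 19.6% against 19.0% of all genes, 30.4% against 24.5% with normexp and 30.4% against 32.6% with array weights. On leaving out 1 sample it was 15.2% to 26.1%, against 12.7% to 22.9% of all genes. Groups did not overlap for 9 Kcn genes, for 4 (Kcnh1, Kcnn2 and Kcns2 among them) with the 8 arrays as samples, with slide column or slide row as a block or with the authors' table, for 5 with control 1 alone in place of the averaged sample, and for 9 to 14 on leaving out 1 sample. Over all 21707 genes the count moved too. It was 3665, but 2767 with the 8 arrays as samples or either block, 3395 with control 1 alone, and 4202 to 7567 on leaving out 1 sample. Over the 23 alternatives the log2 difference of Kcnh1 ranged from 1.86 to 3.22 and that of Kcnn2 from 1.86 to 2.62. Of the 17 members that the naming rule took, 10 changed sign under no alternative run, and 7 with small differences did (Kcna2, Kcng1, Kcnh6, Kcnj8, Kcnk6, Kcnma1 and Kcnmb2). The 10 had been named for an unadjusted p under 0.05 or groups apart, or were the label pair. The 7 had been named only for the smallest difference of their class. This split therefore follows largely from the naming rule and supports nothing. With median scaling 1630 of 3585 genes with an unadjusted p under 0.05 were higher, against 2509 of 4116, and 7 of 9 Kcn genes, against 8 of 9. The cause of these changes was not tested. Kcnb2 could not be tested where all 8 arrays had to be well above background. The planned use of the authors' table with control 1 and control 2 averaged was not run, because its columns are permuted within the groups. No paired analysis was possible because the groups share no replicate numbers, other than the block by slide column given above, each column holding 1 STL and 1 control array.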
